A study of Mus musculus with 6 samples.

Results

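The collagens and core matrix proteins are the genes whose products make up most of the solid material between kidney cells. Members were taken by symbol, under a rule chosen with earlier results of these data known. It took every protein-coding gene named as a collagen chain, together with 11 genes listed one by one (Fn1, Dcn, Lum, Bgn, Fbn1, Sparc, Postn, Tnc, Lox, Loxl1 and Loxl2). The rule found 56 of the 55401 genes in the count table, 45 of them by the collagen pattern. 44 of these 45 encode collagen chains. The other one, Col4a3bp, encodes a protein that moves ceramide from the endoplasmic reticulum to the Golgi, and it is counted apart, which leaves 55 matrix members in 9 classes.

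Kidney RNA was compared between 3 Cdo1KKO/Sed mice and 3 WT/Sed mice. Mice of both genotypes had been given streptozotocin, a toxin that destroys insulin-producing cells, to cause type 1 diabetes, so no kidney without diabetes enters the comparison. Cdo1 encodes cysteine dioxygenase, and the study's title places its question in the renal tubule. The labels do not spell out Sed or KKO and give no Cre driver, strain, age, sex or batch, and each library is labelled as a biological replicate. Cdo1 itself stood at 109.5, 118 and 102 CPM in Cdo1KKO/Sed, against 181, 191 and 180.5 CPM in WT/Sed, which left 59.8% of the WT/Sed level (log2 fold change -0.74 ± 0.06, adjusted p = 4.64e-06). A kidney count per gene does not show which cells lost the transcript or whether a part of it was missing. The tissue label was met by all 10 proximal tubule markers and all 10 podocyte markers, which were detected well enough to be tested.

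Collagens are proteins of 3 chains wound into a triple helix. The fibrillar types assemble into the cables of the interstitium between tubules, the fibril-associated types coat and link those cables, and type IV chains form the flat sheet of every basement membrane. In the kidney, the network of Col4a1 and Col4a2 chains lies under all tubules and vessels, while the network of Col4a3, Col4a4 and Col4a5 chains is made by podocytes for the mature filter of the glomerulus, and in parts of the tubule as well. Loss of the glomerular network causes Alport syndrome in people. Fibronectin, tenascin C and periostin are laid down during repair and scarring, decorin and biglycan bind to fibrils, and lysyl oxidases cross-link the fibrils.

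Several type IV genes are arranged as pairs that start next to each other and are read in opposite directions. The promoters of the pair Col4a1 and Col4a2, of Col4a4 from the pair Col4a3 and Col4a4, and of the fibrillar chains Col3a1 and Col1a2 are shown because the results below turn on these genes. The windows are RefSeq's for GRCm38.p6, from 250 bases before to 50 bases after the start, read 5′ to 3′ on the strand of the gene. They are chr8:11312777-11313076 on the minus strand (Col4a1), chr8:11312555-11312854 on the plus strand (Col4a2), chr1:82586800-82587099 on the minus strand (Col4a4), chr1:45311288-45311587 on the plus strand (Col3a1) and chr6:4505368-4505667 on the plus strand (Col1a2). Capitals mark every match on either strand to one of 4 motifs. These were the TATA box, searched as TATAAA, and the CCAAT box, searched by the letters of its name. The other motifs were the GC box, searched as GGGCGG, and the AP-1 site, searched as TGANTCA.
Col4a1: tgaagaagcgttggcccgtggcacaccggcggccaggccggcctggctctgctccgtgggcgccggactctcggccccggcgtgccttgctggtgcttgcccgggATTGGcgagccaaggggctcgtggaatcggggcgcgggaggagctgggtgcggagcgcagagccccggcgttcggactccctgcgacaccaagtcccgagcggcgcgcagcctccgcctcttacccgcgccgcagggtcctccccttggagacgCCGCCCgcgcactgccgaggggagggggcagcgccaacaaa
Col4a2: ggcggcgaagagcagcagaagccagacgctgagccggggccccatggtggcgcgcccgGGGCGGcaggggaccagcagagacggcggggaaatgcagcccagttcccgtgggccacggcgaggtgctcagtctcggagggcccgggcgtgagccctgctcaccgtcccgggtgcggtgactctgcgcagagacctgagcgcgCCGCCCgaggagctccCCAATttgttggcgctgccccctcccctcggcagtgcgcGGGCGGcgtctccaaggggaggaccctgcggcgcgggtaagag
Col4a4: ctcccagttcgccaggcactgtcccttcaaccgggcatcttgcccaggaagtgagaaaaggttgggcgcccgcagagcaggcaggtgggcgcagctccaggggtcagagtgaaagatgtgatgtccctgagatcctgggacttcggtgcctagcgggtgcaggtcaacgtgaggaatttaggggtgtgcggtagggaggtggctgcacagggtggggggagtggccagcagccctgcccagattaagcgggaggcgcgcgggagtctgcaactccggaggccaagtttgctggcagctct
Col3a1: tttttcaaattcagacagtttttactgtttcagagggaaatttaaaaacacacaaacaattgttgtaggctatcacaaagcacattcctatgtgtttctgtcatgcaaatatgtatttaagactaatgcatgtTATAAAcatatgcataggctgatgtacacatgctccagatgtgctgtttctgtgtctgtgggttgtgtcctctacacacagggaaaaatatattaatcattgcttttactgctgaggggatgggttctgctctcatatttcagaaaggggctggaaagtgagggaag
Col1a2: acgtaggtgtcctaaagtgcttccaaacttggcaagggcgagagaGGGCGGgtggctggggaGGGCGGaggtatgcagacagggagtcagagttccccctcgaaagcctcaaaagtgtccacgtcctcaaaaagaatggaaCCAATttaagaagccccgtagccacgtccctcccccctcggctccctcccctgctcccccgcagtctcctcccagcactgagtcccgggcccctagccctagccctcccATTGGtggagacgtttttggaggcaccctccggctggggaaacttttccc

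The starts of Col4a1 and Col4a2 lie 21 bases apart, so that their windows share 78 bases, and the GC box after each start belongs to this shared stretch. Those of Col4a3 and Col4a4 lie 72 bases apart in GENCODE M21, and those of Col4a5 and Col4a6, on the X chromosome, 1309 bases apart. The window of Col4a4 held none of the 4 motifs. Col3a1 held a TATAAA match at -117 (the start being 1 and the base before it -1), and Col1a2 held CCAAT matches at -109 and, on the other strand, at 1, with GC boxes at -205 and -188. 40 of the 56 members had a window in the table, several with more than one start. A GC box was found in 27 of their 45 windows (60%), against 35.7% of all 32851 windows. CCAAT stood in 31.1% of the members' windows against 37.4% of all, TATAAA in 17.8% against 13.6%, and TGANTCA in 2.22% against 7.81%. These are matches of letters and not binding sites.

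The libraries held 28145261 to 43872779 counts. Those of WT/Sed stood apart from each other in the matrix genes. In 32 of the 45 members with enough counts to be tested (71.1%), WT/Sed replicate 2 had the highest and replicate 3 the lowest level of the WT/Sed libraries, against 27.4% of all genes tested. The median coefficient of variation of the members was 7.99% in Cdo1KKO/Sed and 30.6% in WT/Sed, and that of all genes tested was 6.89% and 11.0%. Summed endothelial markers followed the same order, at 293, 283 and 283 CPM (counts relative to the TMM-scaled library total) in Cdo1KKO/Sed and 198, 337 and 88.4 CPM in WT/Sed. So did the summed markers of podocytes, of fibroblasts with pericytes, and of macrophages, and their part in the order was not tested.

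**Figure D1:**
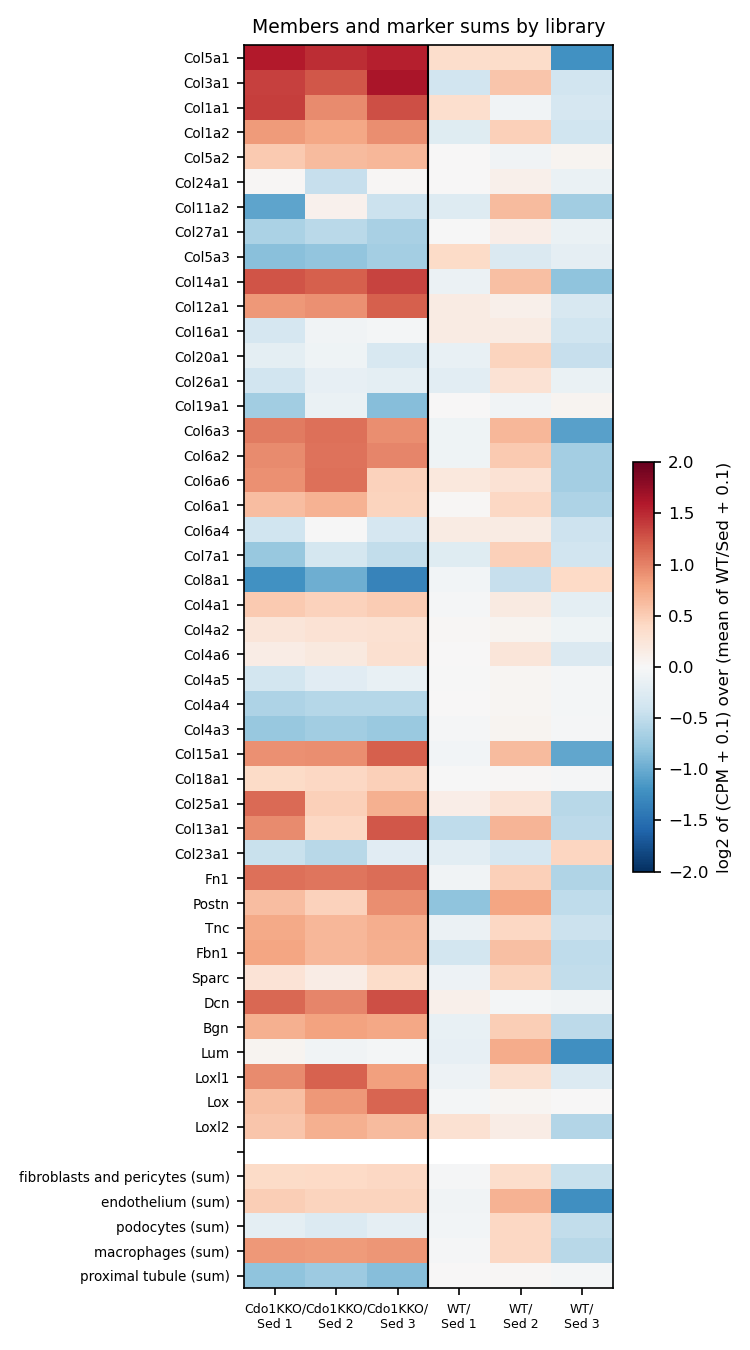
Each row is a matrix member tested, or the summed CPM of a marker list, and each column a library; colour is log2 of (CPM + 0.1) over (the WT/Sed mean + 0.1). The 3 Cdo1KKO/Sed columns are alike, while WT/Sed replicate 2 stands highest and replicate 3 lowest of the WT/Sed columns in 32 of the 45 members tested, Col4a3bp included though not drawn.

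Most of the RNA of these genes in diabetic kidney was type IV collagen. Levels between genes are compared in TPM, which corrects for the length of each gene. The 55 matrix members summed to 528 ± 13.6 TPM in Cdo1KKO/Sed and 455 ± 32.5 TPM in WT/Sed. In Cdo1KKO/Sed the 6 type IV chains held 57.0 ± 0.647% of that sum, against 67.8 ± 2.68% in WT/Sed, without overlap between the libraries. Col4a3 had the highest level in both groups, 83.2 ± 1.08 TPM in Cdo1KKO/Sed and 116 ± 2.16 TPM in WT/Sed. In Cdo1KKO/Sed it was followed by Col4a1 (75.8 ± 2.72 TPM) and Col4a4 (74.1 ± 1.12 TPM), whose libraries overlapped. In WT/Sed the next were Col4a4 (93.4 ± 1.24 TPM) and then Col4a1 (45.0 ± 5.29 TPM), each above the one after it in every pair of libraries.

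Next came Col18a1, Col4a2 and Sparc in both groups. Col18a1, a basement membrane proteoglycan collagen and the source of endostatin, stood at 53.4 ± 1.91 TPM in Cdo1KKO/Sed and 33.4 ± 0.227 TPM in WT/Sed, and Sparc, a collagen-binding glycoprotein, at 47.3 ± 4.34 TPM in Cdo1KKO/Sed and 32.9 ± 10.4 TPM in WT/Sed. Below them, Bgn, Col4a5 and Col27a1 ran from 16.9 to 23.6 TPM in Cdo1KKO/Sed and from 11.6 to 21.5 TPM in WT/Sed, in a different order, Bgn being the highest of these in Cdo1KKO/Sed and the lowest in WT/Sed. The classical fibrillar chains of scar tissue were low: Col1a1, Col1a2, Col3a1, Col5a1 and Col5a2 together made up 4.87 ± 0.202% of the members' TPM in Cdo1KKO/Sed and 2.54 ± 0.0456% in WT/Sed. A mean of at least 10 TPM was reached by 11 matrix members in Cdo1KKO/Sed and 9 in WT/Sed, and at least 1 TPM by 30 and 26.

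Of the 56 members, 45 had enough counts to be tested, and 11 did not. 19 members were higher in Cdo1KKO/Sed and 7 were lower at a Benjamini-Hochberg adjusted p under 0.05 over all 17194 genes tested (edgeR quasi-likelihood test). Among all genes tested, 18.9% were called higher and 18.5% lower, so the share called lower among members (7 of 45) was close to the background. In 24 members every Cdo1KKO/Sed library was above every WT/Sed library, and in 8 every one was below, against 25.7% and 24.5% of all genes tested. The median log2 fold change (Cdo1KKO/Sed over WT/Sed) was 0.61 over the 45 members and 0.01 over all genes tested. Among the collagens alone, 12 of 33 tested were higher and 6 lower, and the members named one by one gave 7 higher and 0 lower of 11. By edgeR at an unadjusted p under 0.05, by DESeq2 and by limma-voom the count of lower members among these 11 was also 0. Scaling by library size alone gave 23 higher and 5 lower members, and the deposited TPM plus 1 gave 24 and 4. Those scalings also moved the median of all genes to 0.18 and 0.19, and raised the share of all calls that were higher to 76.6% and 84.5%, against 50.5%. Without WT/Sed replicate 2, 26 members were higher and 7 lower. Without WT/Sed replicate 3, 18 were higher and 9 lower, and over the 6 fits without 1 library the count of higher members ran from 13 to 26.

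**Figure D2:**
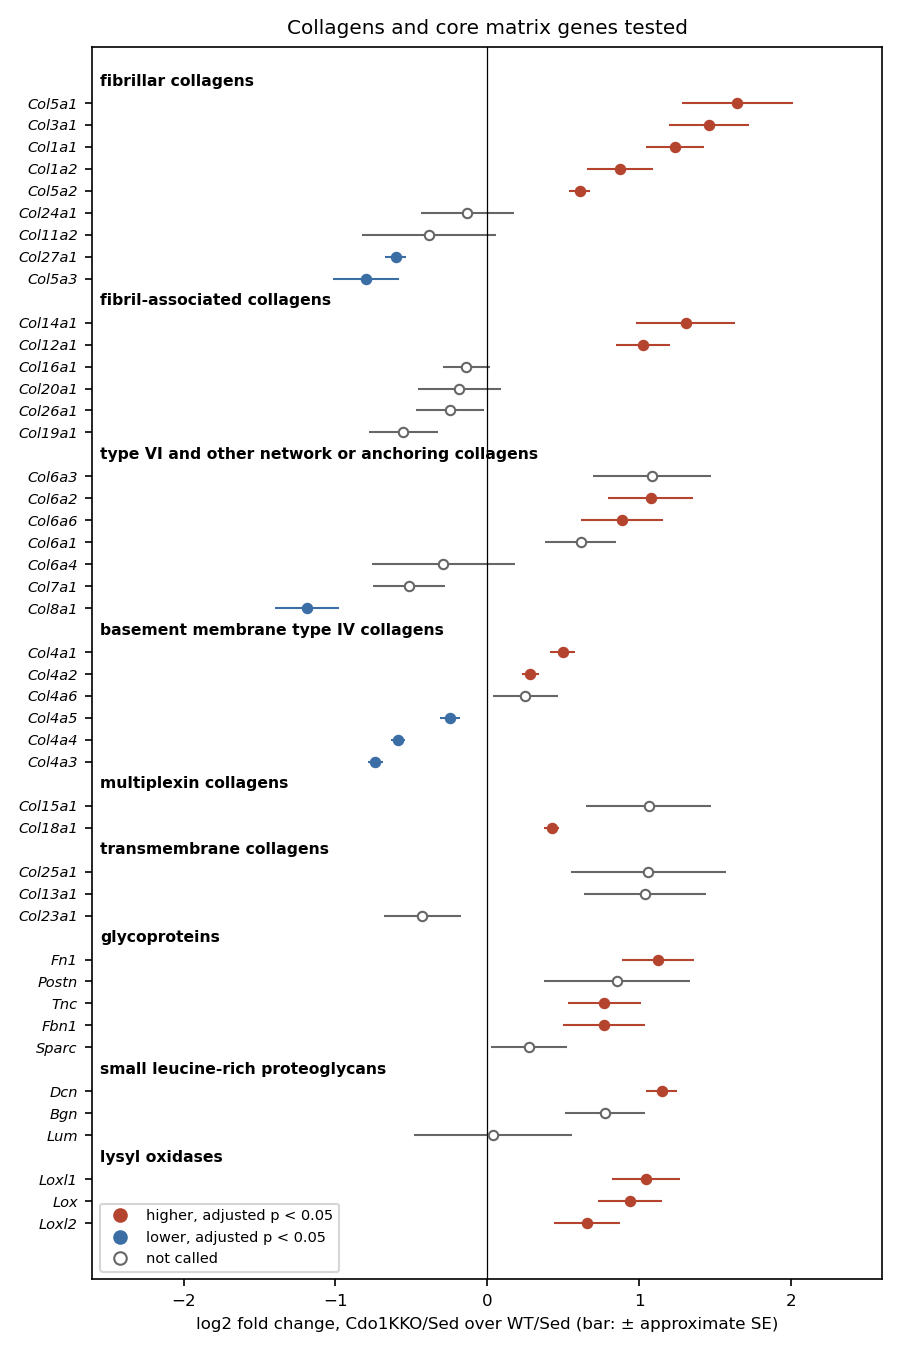
Log2 fold change (x axis, Cdo1KKO/Sed over WT/Sed, bar ± approximate SE) of the 44 matrix members tested, grouped by class; filled points passed an adjusted p of 0.05. The fibrillar class runs from 1.65 for Col5a1 to -0.80 for Col5a3, and the type IV class splits at 0.

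Type IV collagen split by network. Col4a1 and Col4a2, the chains of the network found under all tubules and vessels, were higher in Cdo1KKO/Sed. Of the chains of the glomerular network, Col4a3 and Col4a4 were lower. Col4a5 was called lower by edgeR, but its TPM was 19.3 ± 1.48 in Cdo1KKO/Sed and 19.2 ± 0.270 in WT/Sed, with overlap. In TPM, the ratio of Col4a3, Col4a4 and Col4a5 together to Col4a1 and Col4a2 together was 1.38, 1.47 and 1.42 in Cdo1KKO/Sed and 2.91, 2.75 and 3.18 in WT/Sed. The groups were far apart on this ratio, which does not depend on how libraries are scaled. The summed level of the 6 chains differed by less, at 301 ± 4.34 TPM in Cdo1KKO/Sed and 307 ± 9.64 TPM in WT/Sed, with overlapping libraries.

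Col4a3, on chromosome 1 (82586921 to 82722059, plus strand, GRCm38), had 300.4, 315 and 304 CPM in Cdo1KKO/Sed, against 502, 528 and 502 CPM in WT/Sed. Every Cdo1KKO/Sed library lay below every WT/Sed library, and the level was 60.0% of that in WT/Sed (log2 fold change -0.74 ± 0.05, adjusted p = 9.97e-07). Col4a4, its neighbour on the other strand (82448423 to 82586849), had 285, 293 and 293 CPM in Cdo1KKO/Sed, against 437, 448 and 425 CPM in WT/Sed, again without overlap (log2 fold change -0.59 ± 0.05, adjusted p = 4.23e-06). The TPM ratio of Col4a3 to Col4a4 was 1.12 ± 0.0194 in Cdo1KKO/Sed and 1.25 ± 0.0205 in WT/Sed, so the fall in Col4a3 was the greater of these neighbours. Col4a5, the X-linked chain of the same network, had 44.0, 48.3 and 51.2 CPM in Cdo1KKO/Sed, against 56.5, 58.3 and 55.2 CPM in WT/Sed, lower by less (log2 fold change -0.24 ± 0.07, adjusted p = 0.0132). Leaving out replicate 1 of either group ended the call (adjusted p up to 0.0746), as did scaling by library size alone. In the deposited TPM it stood at 19.3 ± 1.48 TPM in Cdo1KKO/Sed and 19.2 ± 0.270 TPM in WT/Sed, a log2 difference of 0.01 on the log2(TPM + 1) scale.

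Col4a1, on chromosome 8 (11198423 to 11312826, minus strand), had 214, 203 and 209.9 CPM in Cdo1KKO/Sed, against 146, 168 and 129.9 CPM in WT/Sed (log2 fold change 0.50 ± 0.08, adjusted p = 9.00e-04). All 3 Cdo1KKO/Sed libraries were above all 3 WT/Sed libraries. Col4a2, which shares its promoter region (11312805 to 11449287, plus strand), had 114, 118 and 119 CPM in Cdo1KKO/Sed, against 98.0, 100.3 and 90.4 CPM in WT/Sed, also without overlap (log2 fold change 0.29 ± 0.05, adjusted p = 0.00187). The pair did not keep a constant proportion, since the TPM ratio of Col4a1 to Col4a2 was 1.66, 1.53 and 1.56 in Cdo1KKO/Sed and 1.32, 1.49 and 1.27 in WT/Sed. Col4a6, the sixth chain, known from the capsule around the glomerulus, was low, at 2.49 ± 0.156 CPM in Cdo1KKO/Sed and 2.11 ± 0.404 CPM in WT/Sed, and was not called (log2 fold change 0.25 ± 0.21, adjusted p = 0.394). The calls of Col4a1, Col4a2, Col4a3 and Col4a4 were kept in all 18 alternative settings.

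In bulk tissue, fewer cells of a type and less RNA per cell cannot be told apart. The 10 podocyte markers summed to 324, 305 and 327 CPM in Cdo1KKO/Sed and 357, 491 and 263 CPM in WT/Sed, which overlapped. Against 18.5% of all genes tested, 3 of the 10 markers were lower. Among these were the transcription factor Wt1 and the cell cycle inhibitor Cdkn1c, with log2 fold changes of -0.79 and -0.74. On the TPM plus 1, neither was called and the count was 1. Leaving out Cdo1KKO/Sed replicate 3 also ended both calls, as did Cdo1KKO/Sed replicate 1 for Wt1, and Cdo1KKO/Sed replicate 2 or WT/Sed replicate 1 for Cdkn1c. The slit diaphragm gene Nphs1 was not called, at -0.54. All 10 proximal tubule markers were lower, with sums of 9714 to 10593 CPM in Cdo1KKO/Sed and 17021 to 17876 CPM in WT/Sed. The part of podocyte or tubule markers in the type IV difference was not tested.

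**Figure D3:**
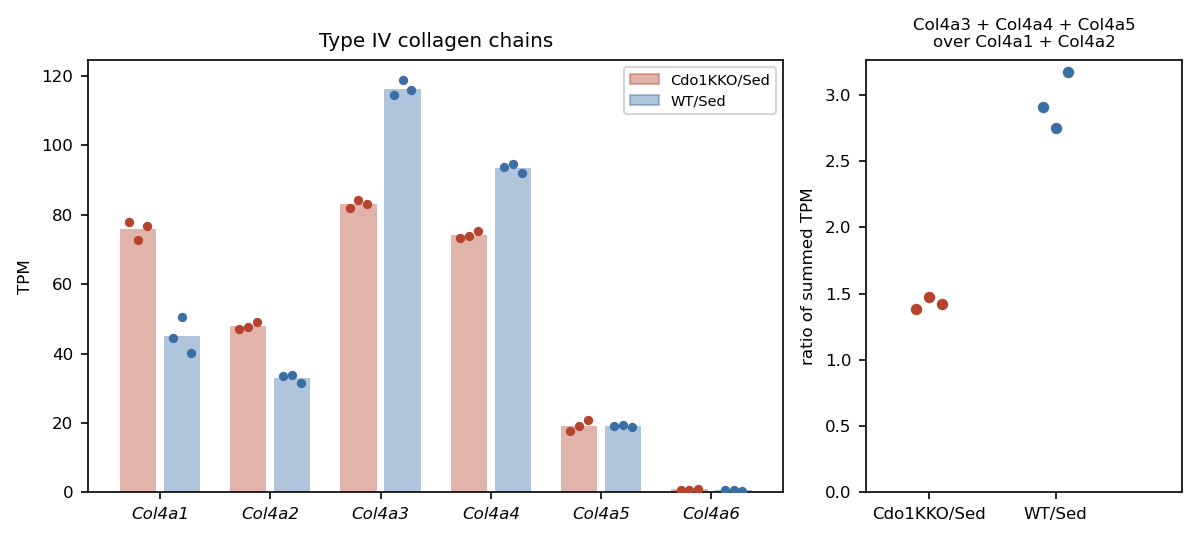
Left, TPM of the 6 type IV chains (bars, mean of 3 libraries; dots, libraries). Right, the ratio of summed TPM of Col4a3, Col4a4 and Col4a5 to that of Col4a1 and Col4a2 in each library, between 1.38 and 1.47 in Cdo1KKO/Sed and between 2.75 and 3.18 in WT/Sed.

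Among fibrillar collagens, 5 of the 9 tested were higher and 2 were lower in Cdo1KKO/Sed, against 18.9% and 18.5% of all genes tested. Col1a1, the main chain of type I collagen (chromosome 11, 94936224 to 94953042), had 9.86, 7.27 and 9.22 CPM in Cdo1KKO/Sed, against 4.73, 3.52 and 2.92 CPM in WT/Sed, without overlap (log2 fold change 1.23 ± 0.19, adjusted p = 4.55e-04). Its partner Col1a2, described after its values were seen, had 21.8, 20.8 and 23.1 CPM in Cdo1KKO/Sed, against 10.2, 16.9 and 9.15 CPM in WT/Sed (log2 fold change 0.87 ± 0.22, adjusted p = 0.0179). WT/Sed replicate 2 was the nearest to the Cdo1KKO/Sed libraries, and leaving out either Cdo1KKO/Sed replicate 3 or WT/Sed replicate 1 ended the call (adjusted p up to 0.0669). Col3a1, which forms mixed fibrils with type I collagen (chromosome 1, 45311538 to 45349706), had 16.4, 15.2 and 19.8 CPM in Cdo1KKO/Sed, against 4.86, 9.33 and 4.82 CPM in WT/Sed, 2.70-fold the WT/Sed mean (log2 fold change 1.46 ± 0.26, adjusted p = 0.00456). Again WT/Sed replicate 2 was the highest of its group and still below every Cdo1KKO/Sed library.

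Type V collagen, which sets the diameter of type I fibrils, was divided between its chains. Col5a1 had 3.64, 3.37 and 3.53 CPM in Cdo1KKO/Sed, against 1.49, 1.50 and 0.438 CPM in WT/Sed, where WT/Sed replicate 3 was far below the other libraries of its group (log2 fold change 1.65 ± 0.37, adjusted p = 0.00574). Col5a2, with the highest TPM of the classical fibrillar chains in both groups, had 38.2, 41.5 and 42.2 CPM in Cdo1KKO/Sed, against 26.9, 25.3 and 27.8 CPM in WT/Sed, without overlap (log2 fold change 0.61 ± 0.07, adjusted p = 4.57e-05). Col5a3, the third chain, went the other way, at 2.18 ± 0.119 CPM in Cdo1KKO/Sed and 3.78 ± 1.03 CPM in WT/Sed (log2 fold change -0.80 ± 0.22, adjusted p = 0.014), and the call ended on the TPM values and when replicate 1 of either group or Cdo1KKO/Sed replicate 2 was left out (adjusted p up to 0.0844).

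Col27a1, a fibrillar collagen best known from cartilage, had the highest TPM of its class in both groups. It had 79.8, 85.1 and 78.8 CPM in Cdo1KKO/Sed, against 123, 135 and 112 CPM in WT/Sed (log2 fold change -0.60 ± 0.07, adjusted p = 5.69e-05), and the groups did not overlap. In TPM it stood at 16.9 ± 0.497 TPM in Cdo1KKO/Sed and 21.5 ± 1.74 TPM in WT/Sed. Col11a2 and Col24a1 were not called, with log2 fold changes of -0.39 and -0.13. Fibrillar collagens in sum reached 44.1 ± 1.34 TPM in Cdo1KKO/Sed and 35.0 ± 2.91 TPM in WT/Sed.

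**Figure D4:**
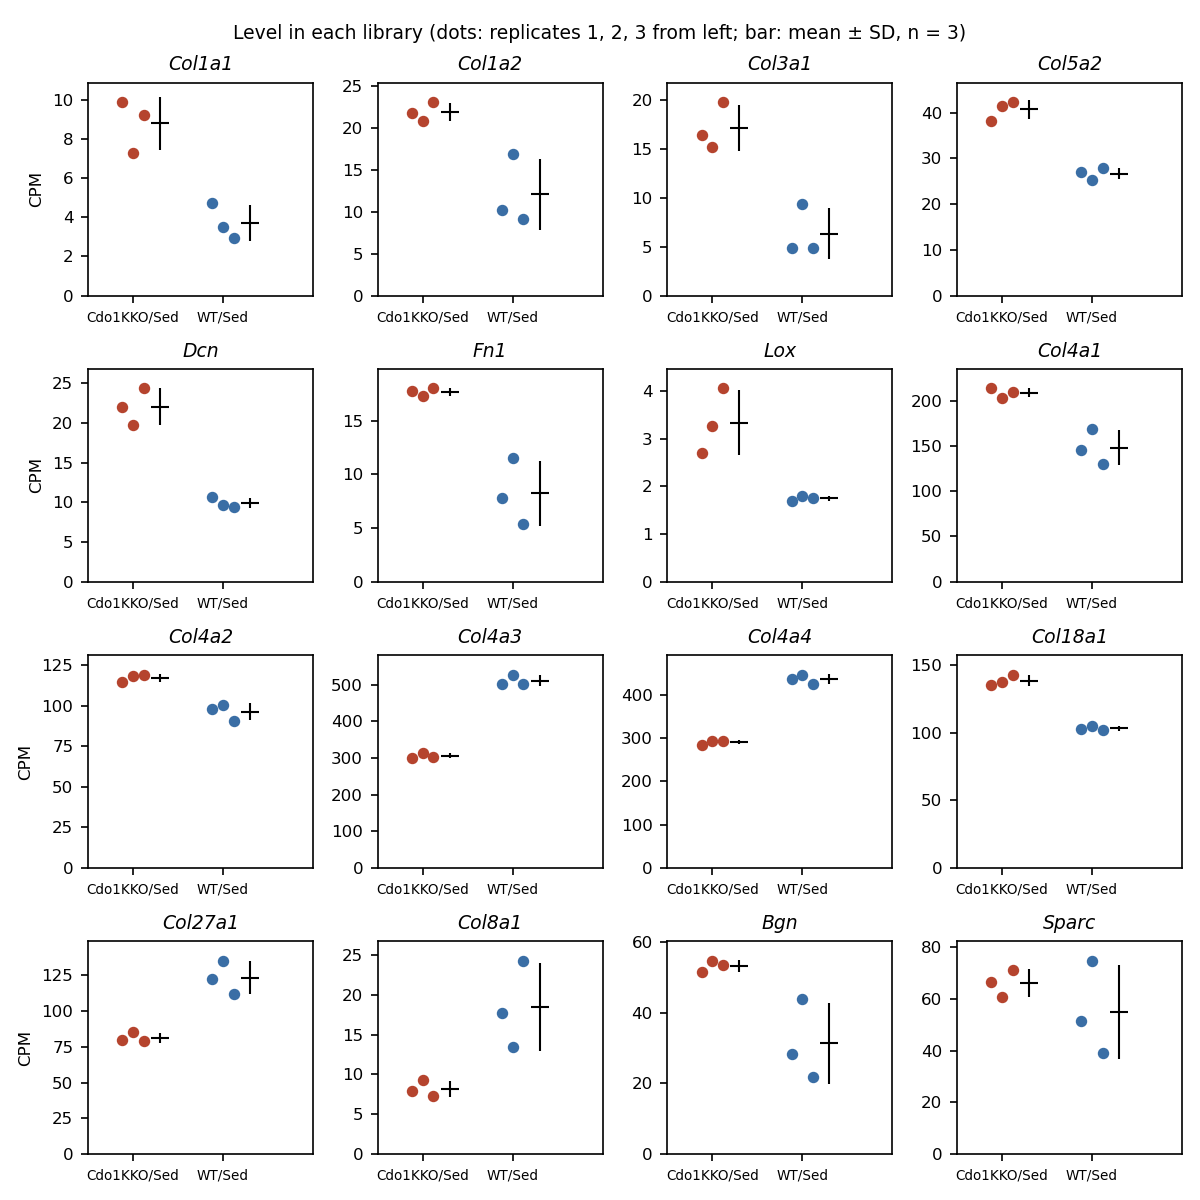
CPM of 16 members in each library (dots, replicates 1 to 3 from left; bars, mean ± SD, n = 3; each y axis starts at 0). For Sparc the groups overlap, while for the other 15 members they do not.

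Of the fibril-associated collagens, 2 of 6 tested were higher, against 18.9% of all genes tested. edgeR, DESeq2 and limma-voom each called 0 of them lower, and 1, Col19a1, was lower at an unadjusted p under 0.05. Col12a1 and Col14a1, which sit on the surface of type I fibrils, rose together. Col12a1 had 5.63, 5.84 and 7.11 CPM in Cdo1KKO/Sed, against 3.44, 3.30 and 2.43 CPM in WT/Sed (log2 fold change 1.03 ± 0.18, adjusted p = 0.00102). Col14a1 had 14.9, 14.4 and 16.0 CPM in Cdo1KKO/Sed, against 5.70, 9.45 and 3.50 CPM in WT/Sed (log2 fold change 1.31 ± 0.33, adjusted p = 0.0218). Both were without overlap, but WT/Sed replicate 3 of Col14a1 was low, and leaving out WT/Sed replicate 1, or a single library of Cdo1KKO/Sed, ended its call (adjusted p up to 0.0837). Col16a1, Col19a1, Col20a1 and Col26a1 had log2 fold changes between -0.55 and -0.14 and were not called.

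Type VI collagen forms beaded filaments around cells from the chains Col6a1, Col6a2 and Col6a3. Of its 5 chains tested, 2 were higher in Cdo1KKO/Sed, against 18.9% of all genes tested. Col6a2 had 3.37, 3.72 and 3.42 CPM in Cdo1KKO/Sed, against 1.59, 2.47 and 1.02 CPM in WT/Sed (log2 fold change 1.08 ± 0.28, adjusted p = 0.0108), a call that ended when Cdo1KKO/Sed replicate 2 or WT/Sed replicate 1 was left out (adjusted p up to 0.0545). Col6a6, a further chain of this type named after its values were seen, was also called higher, at 4.31 ± 0.950 CPM in Cdo1KKO/Sed and 2.35 ± 0.795 CPM in WT/Sed (log2 fold change 0.89 ± 0.27, adjusted p = 0.0257). That call ended without Cdo1KKO/Sed replicate 1 or 2 or WT/Sed replicate 1 (adjusted p up to 0.118), and with the TPM plus 1 over all genes (0.0563). Col6a1 and Col6a3 were not called by edgeR, at log2 fold changes of 0.62 (adjusted p = 0.0599) and 1.08 (adjusted p = 0.0661). Both were called higher by DESeq2 (adjusted p = 0.0334 for Col6a1 and 0.00261 for Col6a3) and by limma-voom (0.0244 and 0.0138 in that order), and likewise with library size alone, the TPM settings, no filter, halved counts and the replicate block (adjusted p = 0.0235 and 0.0236). Without WT/Sed replicate 2 the adjusted p of Col6a1 by edgeR was 0.00127 and that of Col6a3 was 3.98e-05, and without WT/Sed replicate 3 that of Col6a3 was 0.00774. The TPM ratio of Col6a1 to Col6a2 was 3.31 ± 0.240 in Cdo1KKO/Sed and 4.62 ± 0.410 in WT/Sed, without overlap.

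Col8a1, a short-chain collagen that forms hexagonal lattices in vessels and in the mesangium, moved most among the lower members. It had 7.96, 9.31 and 7.28 CPM in Cdo1KKO/Sed, against 17.7, 13.4 and 24.3 CPM in WT/Sed, 44.3% of the WT/Sed mean (log2 fold change -1.18 ± 0.21, adjusted p = 0.00313). In WT/Sed its order of libraries was the reverse of that of most members, with replicate 3 the highest and replicate 2 the lowest. Col7a1, the anchoring fibril collagen of skin, and Col6a4 were not called (-0.52 and -0.29).

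Of the multiplexins, which join basement membrane to the matrix beneath it, Col18a1 rose. It had 135, 137 and 143 CPM in Cdo1KKO/Sed, against 102, 105 and 102 CPM in WT/Sed, with both groups narrow (log2 fold change 0.42 ± 0.05, adjusted p = 5.75e-05). Col15a1 was not called by edgeR, at 12.9 ± 1.50 CPM in Cdo1KKO/Sed and 6.33 ± 3.43 CPM in WT/Sed (log2 fold change 1.06 ± 0.41, adjusted p = 0.0994). Its groups did not overlap, and WT/Sed replicate 2 was again the highest and replicate 3 the lowest of their group. DESeq2 did not call it (adjusted p = 0.0768), while limma-voom (0.0292) and limma on the TPM plus 1 (0.0112) called it higher, as did edgeR without WT/Sed replicate 2 (0.00514) or 3 (0.00729). The transmembrane collagens Col13a1, Col25a1 and Col23a1 had log2 fold changes of 1.04, 1.06 and -0.43. edgeR and DESeq2 called 0 of these 3, while limma-voom called 1 higher, the same number as edgeR at an unadjusted p under 0.05.

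Fibronectin, tenascin C and fibrillin 1 rose among the 5 glycoproteins, while 18.9% of all genes tested were higher. Fn1 (chromosome 1, 71585520 to 71653200), which cells assemble into the first scaffold of new matrix, had 17.7, 17.3 and 17.98 CPM in Cdo1KKO/Sed, against 7.79, 11.5 and 5.40 CPM in WT/Sed (log2 fold change 1.12 ± 0.24, adjusted p = 0.00856). The Cdo1KKO/Sed libraries lay close together and above all WT/Sed libraries. Tnc, described after its values were seen, was at 3.16 ± 0.104 CPM in Cdo1KKO/Sed and 1.88 ± 0.608 CPM in WT/Sed (log2 fold change 0.77 ± 0.24, adjusted p = 0.0265), and Fbn1, the main protein of microfibrils, at 5.86 ± 0.248 CPM in Cdo1KKO/Sed and 3.51 ± 1.64 CPM in WT/Sed (log2 fold change 0.77 ± 0.27, adjusted p = 0.0497). Both calls ended when any library but WT/Sed replicate 2 was left out, with an adjusted p up to 0.102 for Tnc and 0.185 for Fbn1. The call of Fbn1 also ended by edgeR with RLE (adjusted p = 0.0515) or upper-quartile scaling (0.0591). It ended as well by limma on the TPM plus 1 over all genes (0.0674).

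Sparc, the most abundant glycoprotein of the set, had 66.7, 60.7 and 71.3 CPM in Cdo1KKO/Sed, against 51.3, 74.8 and 39.0 CPM in WT/Sed. The WT/Sed libraries spanned the range of Cdo1KKO/Sed, and it was not called (log2 fold change 0.27 ± 0.25, adjusted p = 0.459). Without WT/Sed replicate 2 its adjusted p was 0.0126. Postn, a marker of activated fibroblasts, was low, at 0.901 ± 0.172 CPM in Cdo1KKO/Sed and 0.524 ± 0.392 CPM in WT/Sed, and not called (log2 fold change 0.86 ± 0.48, adjusted p = 0.19), though it was without WT/Sed replicate 2 (adjusted p = 0.00946).

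Decorin (Dcn, chromosome 10, 97479609 to 97518143) rose, with no overlap between the groups. It had 22.0, 19.7 and 24.3 CPM in Cdo1KKO/Sed, against 10.6, 9.67 and 9.44 CPM in WT/Sed, 2.22-fold the WT/Sed mean (log2 fold change 1.15 ± 0.10, adjusted p = 7.65e-06). Biglycan (Bgn, on the X chromosome), its relative and the higher in TPM in both groups, had 51.5, 54.7 and 53.4 CPM in Cdo1KKO/Sed, against 28.2, 43.9 and 21.8 CPM in WT/Sed. The groups did not overlap for Bgn, but the spread within WT/Sed was wide and it was not called by edgeR (log2 fold change 0.78 ± 0.26, adjusted p = 0.0752). DESeq2 (adjusted p = 0.0352), limma-voom (0.0317), scaling by library size alone (0.0424) and limma on the TPM plus 1 (0.00485) called it higher. Without WT/Sed replicate 2 its adjusted p by edgeR was 7.33e-08. Lumican (Lum) was not called, at 0.578 ± 0.0310 CPM in Cdo1KKO/Sed and 0.586 ± 0.432 CPM in WT/Sed.

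All 3 lysyl oxidases were higher in Cdo1KKO/Sed, against 18.9% of all genes tested. Loxl1 had 3.31, 3.90 and 3.01 CPM in Cdo1KKO/Sed, against 1.54, 2.10 and 1.36 CPM in WT/Sed (log2 fold change 1.04 ± 0.22, adjusted p = 0.00372). Lox had 2.69, 3.27 and 4.05 CPM in Cdo1KKO/Sed, against 1.70, 1.80 and 1.75 CPM in WT/Sed (log2 fold change 0.94 ± 0.21, adjusted p = 0.00492), and its WT/Sed libraries were close to each other. Loxl2, which also cross-links type IV collagen, was at 5.77 ± 0.290 CPM in Cdo1KKO/Sed and 3.68 ± 1.13 CPM in WT/Sed (log2 fold change 0.66 ± 0.21, adjusted p = 0.0329). Lox and Loxl2 were described after their values were seen. Leaving out WT/Sed replicate 3, or a single library of Cdo1KKO/Sed, ended the call of Loxl2 (adjusted p up to 0.111). In TPM the 3 enzymes summed to 7.57 ± 0.489 TPM in Cdo1KKO/Sed and 3.52 ± 0.615 TPM in WT/Sed.

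The ceramide transfer gene Col4a3bp, caught by the symbol pattern, had 112, 108 and 108 CPM in Cdo1KKO/Sed, against 123, 124 and 119.8 CPM in WT/Sed (log2 fold change -0.16 ± 0.05, adjusted p = 0.0215). The libraries did not overlap, but the sign depended on the scaling. The difference was 0.09 on the log2(TPM + 1) scale, and the call ended when WT/Sed replicate 1, or a single library of Cdo1KKO/Sed, was left out (adjusted p up to 0.0863).

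The 11 members not tested were Col2a1, Col6a5, Col8a2, Col9a1, Col9a2, Col9a3, Col10a1, Col11a1, Col17a1, Col22a1 and Col28a1, most of them known from cartilage, skin or other tissues. None of them exceeded 12 counts in any library, and Col9a1 had 0 counts in all 6. A count of 0 allows up to 0.0254 CPM over the 3 Cdo1KKO/Sed libraries and 0.0281 CPM over the 3 WT/Sed libraries (3 counts in all, counting error only). These limits take counts as independent. Of genes with 2 to 20 counts in a library, 78.7% to 81.2% had an even count, so the limits may be too low. Of 6 cartilage and bone markers, Acan and Ibsp were at 0 in every library and 2 were detected well enough to be tested, and the summed markers were 3.23 to 3.67 CPM in Cdo1KKO/Sed and 2.29 to 3.21 CPM in WT/Sed. Skeletal muscle markers summed to at most 0.101 CPM in any library.

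The increases among matrix members came with changes in cell type markers, and the cells behind these increases were not identified. Among all genes tested, 18.9% were called higher and 18.5% lower. Of 16 fibroblast and pericyte markers tested, 5 were higher, with sums of 162 to 166 CPM in Cdo1KKO/Sed and 90.9 to 159 CPM in WT/Sed. S100a4 was listed at 0 in every library. The higher ones were the receptors Pdgfra, Pdgfrb and Notch3, the proteoglycan Cspg4 and the filament gene Des, by 1.27, 1.11, 0.39, 0.28 and 0.96 on the log2 scale. The calls of Pdgfra and Pdgfrb were kept in all 18 alternatives, while those of Notch3, Cspg4 and Des were each lost in at least 2 of the fits without 1 library. Smooth muscle actin, Acta2, a marker of myofibroblasts, stood at 13.0 ± 0.289 CPM in Cdo1KKO/Sed and 13.5 ± 6.70 CPM in WT/Sed. Its libraries overlapped, and it was not called.

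Macrophage markers were higher in 8 of 11 cases and lower in 1. They summed to 258 to 262 CPM in Cdo1KKO/Sed and 97.3 to 189.6 CPM in WT/Sed. The calls of C1qb, C1qc, Mrc1 and Cx3cr1 ended when WT/Sed replicate 1, or any 1 library of Cdo1KKO/Sed, was left out. The lower one was Csf1r (log2 fold change -0.33, adjusted p = 0.0119 by edgeR). Its call ended without Cdo1KKO/Sed replicate 1, with library size alone and with the TPM settings. Neutrophil markers (5 of 6 higher) summed to 14.8 to 18.2 CPM in Cdo1KKO/Sed and 1.65 to 3.14 CPM in WT/Sed. Red blood cell markers (4 of 4 higher) summed to 404 to 427 CPM in Cdo1KKO/Sed and 26.3 to 53.2 CPM in WT/Sed. Markers of injured tubule (8 of 8 higher) summed to 8992 to 10785 CPM in Cdo1KKO/Sed and 1076 to 1401 CPM in WT/Sed. Of 10 endothelial markers, edgeR, DESeq2 and limma-voom called 0, edgeR at an unadjusted p under 0.05 also 0, and limma on the TPM plus 1 called 2 higher. T and B cell markers were higher in 2 of 7 cases, with overlapping sums, and 5 urothelial markers gave 0 calls by each of these tools and at an unadjusted p under 0.05, with sums of 2.54 to 4.38 CPM in Cdo1KKO/Sed and 1.87 to 10.3 CPM in WT/Sed. Markers of the thick ascending limb and distal tubule were higher in 4 of 5 cases, and those of the collecting duct were higher in 1 and lower in 2 of 7. Of 5 adipocyte markers, only Cidec had enough counts to be tested. It was higher, at 3.13 ± 0.542 CPM in Cdo1KKO/Sed and 0.332 ± 0.170 CPM in WT/Sed. The 5 together summed to 3.09 to 3.86 CPM in Cdo1KKO/Sed, and Lep was at 0 in every library. The part of these markers in the matrix differences was not tested.

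The genes that make, process, bind and break down matrix were examined as 6 lists of 107 genes, of which 98 were tested, 38 were higher and 7 lower. In collagen synthesis and processing, 6 of 30 were higher and 5 lower, close to the 18.9% and 18.5% of all genes tested, with a median log2 fold change of 0.04. Without Cdo1KKO/Sed replicate 2 or 3 the count of higher genes was 3. This balance depended on the scaling, with 10 higher and 3 lower by library size alone and 16 higher and 1 lower on the TPM plus 1. The peroxidasin Pxdn, which cross-links type IV collagen, was at 25.0 ± 0.859 CPM in Cdo1KKO/Sed and 17.0 ± 0.581 CPM in WT/Sed (log2 fold change 0.55 ± 0.07, adjusted p = 1.34e-04). The procollagen protease Bmp1 was at 8.25 ± 1.65 CPM in Cdo1KKO/Sed and 3.90 ± 0.522 CPM in WT/Sed (log2 fold change 1.07 ± 0.18, adjusted p = 6.94e-04). On the lower side, the lysyl hydroxylase Plod1 was at 22.9 ± 1.73 CPM in Cdo1KKO/Sed and 32.7 ± 1.51 CPM in WT/Sed (log2 fold change -0.51 ± 0.08, adjusted p = 3.38e-04) and the prolyl hydroxylase subunit P4ha1 at 55.2 ± 4.14 CPM in Cdo1KKO/Sed and 72.7 ± 0.857 CPM in WT/Sed (log2 fold change -0.39 ± 0.06, adjusted p = 4.92e-04).

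The other lower genes of that list were P3h2, Tmem38b and P4hb, by -0.45, -0.27 and -0.15 on the log2 scale. P3h2 adds hydroxyl groups to proline in type IV collagen. With the deposited TPM plus 1, P4ha1, P3h2, Tmem38b and P4hb were no longer called. Bmp1 and Pxdn were joined on the higher side by Tll1, Colgalt2, Adamts2 and Fkbp10, higher by 1.63, 0.44, 1.01 and 1.06. Colgalt2 was no longer called without Cdo1KKO/Sed replicate 2 or 3 or WT/Sed replicate 1, and Adamts2 without WT/Sed replicate 3 or any 1 library of Cdo1KKO/Sed. Leaving out any library but WT/Sed replicate 2 ended the call of Fkbp10, and leaving out WT/Sed replicate 1 or any 1 library of Cdo1KKO/Sed that of P4hb. The collagen chaperone Serpinh1 was not called (log2 fold change 0.22). Genes of these lists outside the 4 with the smallest p of a list, unless they belong to a count of 5 or fewer, were named after their values were seen.

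Turnover genes were higher in 8 of 15 cases and lower in 1, against 18.9% and 18.5% of all genes tested. Mmp7, a protease of injured epithelium, was at 38.1 ± 4.55 CPM in Cdo1KKO/Sed and 0.0827 ± 0.0357 CPM in WT/Sed. The protease inhibitor Timp1 was at 3.16 ± 0.178 CPM in Cdo1KKO/Sed and 0.235 ± 0.119 CPM in WT/Sed. The membrane collagenase Mmp14 was at 9.15 ± 0.425 CPM in Cdo1KKO/Sed and 3.40 ± 0.787 CPM in WT/Sed. Adjusted p for these 3 ran from 1.89e-10 to 7.09e-05. Plau, the urokinase gene, was the lower one, at 454 ± 41.6 CPM in Cdo1KKO/Sed and 574 ± 77.7 CPM in WT/Sed (log2 fold change -0.34 ± 0.10, adjusted p = 0.0351), with overlapping libraries, and its call was lost in 8 of the alternatives.

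Collagen receptors were higher in 5 of 8 cases, against 18.9% of all genes tested. The hyaluronan and collagen receptor Cd44 was at 7.95 ± 0.576 CPM in Cdo1KKO/Sed and 1.28 ± 0.398 CPM in WT/Sed (log2 fold change 2.66 ± 0.22, adjusted p = 4.60e-06). Ddr1, an epithelial receptor kinase activated by collagen, was at 111 ± 5.41 CPM in Cdo1KKO/Sed and 80.0 ± 3.71 CPM in WT/Sed (log2 fold change 0.47 ± 0.06, adjusted p = 8.30e-05), and its mesenchymal relative Ddr2 at 6.45 ± 1.44 CPM in Cdo1KKO/Sed and 2.77 ± 0.635 CPM in WT/Sed (log2 fold change 1.23 ± 0.22, adjusted p = 0.00112). The inhibitory leukocyte receptor Lair1 rose by 2.07 ± 0.34 and the integrin subunit Itgb1 by 0.36 ± 0.06.

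Basement membrane proteins other than collagens were higher in 3 of 12 cases, near the 18.9% of all genes tested. On the TPM plus 1 it was 8, in a setting where 84.5% of all calls were higher. The 3 called by edgeR were Frem1, Smoc2 and Egflam. Frem1 was at 2.77 ± 0.464 CPM in Cdo1KKO/Sed and 0.652 ± 0.144 CPM in WT/Sed. Smoc2 was at 5.03 ± 0.419 CPM in Cdo1KKO/Sed and 2.05 ± 0.407 CPM in WT/Sed, and Egflam at 2.43 ± 0.306 CPM in Cdo1KKO/Sed and 1.37 ± 0.116 CPM in WT/Sed. The edgeR count was 5 without WT/Sed replicate 2 or 3, and Egflam lost its call without Cdo1KKO/Sed replicate 3. The nidogen Nid1 was not called by edgeR (log2 fold change 1.21, adjusted p = 0.0688), but it was called higher by DESeq2 (0.0191), by limma-voom (0.0239) and in 8 other alternatives. The nidogen Nid2, the perlecan gene Hspg2 and the agrin gene Agrn were not called by edgeR, with log2 fold changes of -0.01, 0.62 and 0.11, and Hspg2 and Agrn were called on the TPM plus 1. Elastic fibre genes were higher in 5 of 13 cases. These were Efemp1, Emilin2, Fbln5, Emilin1 and Efemp2, higher by 0.77, 2.11, 1.24, 1.00 and 0.58 on the log2 scale. The count was 3 without Cdo1KKO/Sed replicate 1, Cdo1KKO/Sed replicate 3 or WT/Sed replicate 1, where Emilin1 and Efemp2 were no longer called. Elastin itself, Eln, was not called by edgeR (-0.66).

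Other leucine-rich proteoglycans and matricellular proteins were higher in 11 of 20 cases and lower in 1, against 18.9% and 18.5% of all genes tested. The count of higher genes was 7 without WT/Sed replicate 1. Osteopontin (Spp1), which injured tubules secrete, was at 7242 ± 793 CPM in Cdo1KKO/Sed and 934 ± 123 CPM in WT/Sed (log2 fold change 2.96 ± 0.12, adjusted p = 3.37e-06). Tgfbi was at 18.6 ± 1.34 CPM in Cdo1KKO/Sed and 5.20 ± 1.20 CPM in WT/Sed (log2 fold change 1.85 ± 0.15, adjusted p = 4.75e-06) and Ccn1 at 38.4 ± 3.47 CPM in Cdo1KKO/Sed and 23.4 ± 2.75 CPM in WT/Sed (log2 fold change 0.72 ± 0.10, adjusted p = 1.64e-04). Osteomodulin (Omd), a relative of decorin known from bone, was the lower one, at 1.24 ± 0.393 CPM in Cdo1KKO/Sed and 4.26 ± 1.19 CPM in WT/Sed (log2 fold change -1.78 ± 0.29, adjusted p = 5.86e-04). The median log2 fold change of this list was 0.66, against 0.51 for receptors, 0.45 for elastic fibre genes, 0.34 for turnover and 0.24 for other basement membrane proteins.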

How the data were processed

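Poly(A) RNA of whole kidney was sequenced from 3 Cdo1KKO/Sed and 3 WT/Sed mice, per the labels. The authors deposited whole-number counts per gene and TPM values for 55401 gene identifiers. The deposited TPM follows from the counts with 1 length per gene. The submitters' processing notes name fastp 0.23.4 and the builds GRCm38 and mm10. The aligner, counter and strand setting were not given in the sources used here. Without strand, reads of overlapping genes cannot be told apart.

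The 2 genotypes were compared in edgeR 4.0.16 (R 4.3.3) by filterByExpr, which kept 17194 genes, TMM scaling and the robust quasi-likelihood F test, without covariates. Adjustment of p-values followed Benjamini and Hochberg over all genes tested, with a threshold of 0.05. The approximate SE is the log2 fold change divided by the square root of F. CPM uses the TMM-scaled totals. The test was run on simulated counts first. No molecular identifiers are stated, so limits cover counting error only.

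The members, their classes, 6 pathway lists and 15 marker lists were chosen with earlier results of these data known. Library values are printed for members with a mean of at least 5 TPM, or that were called without overlap, with an absolute log2 fold change of at least 1 and a mean of at least 0.1 CPM. Up to 4 genes with the smallest p are named from a pathway list, and every gene of a count of 5 or fewer. Some genes that this rule names are not reported here. Alternatives were RLE, upper-quartile and library-size scaling, no filter or at least 1 CPM in 3 libraries, DESeq2 1.42.0, limma 3.58.1 (voom, and log2 of TPM plus 1 or 0.1), the replicate block, each library left out, and, chosen after seeing the data, halved counts. The labels do not say whether replicate numbers pair the samples, and they were not read as pairs. Positions are GENCODE M21, matched by identifier for all 56 members. Python 3.11.15 with matplotlib 3.10.9 drew the figures.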

Additional observations from a re-analysis of the deposited data

How the results depend on the processing

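Of the 26 members called, 16 kept their call in all 18 alternatives: Col1a1, Col3a1, Col4a1, Col4a2, Col5a1, Col5a2, Col12a1, Col18a1, Dcn, Fn1, Lox and Loxl1 on the higher side, and Col4a3, Col4a4, Col8a1 and Col27a1 on the lower. The count of higher members ran from 13 to 26 without 1 library, and the count of lower members from 4 to 9. It was 4 lower members with each of the 3 TPM settings. Over all genes, the log2 of TPM plus 0.1, plus 1 on all genes and plus 1 called 6660, 5469 and 6784 genes higher and 1224, 1010 and 1246 lower, and library size alone called 5513 higher and 1685 lower. Without 1 library, 2306 to 3767 genes were higher and 2331 to 3553 lower. In the pathway lists, 58 and 59 genes were higher with TPM plus 0.1 and plus 1, and 2, 1 and 2 lower with TPM plus 0.1, plus 1 on all genes and plus 1. Library size alone left 4 lower, and without 1 library 28 to 47 were higher and 5 to 12 lower. 2 calls turned sign: Col4a3bp to 0.0920 (TPM plus 0.1), 0.0897 (TPM plus 1, also on all genes) and 0.00795 (library size alone), and Col4a5 to 0.00513 (TPM plus 0.1) and 0.00502 (TPM plus 1, also on all genes). The median of all genes was also higher under these settings, as given with the counts of members, and the cause of the sign changes was not tested. With the replicate block, 21 members were higher and 7 lower, Col6a1 and Col6a3 being added. Same-numbered libraries did not deviate together (Pearson r across genes of -0.00218, 0.0104 and 0.0125), and the numbers are not read as pairs. With 3 libraries per group, these correlations cannot exclude a pairing that moves few genes. Leaving out 1 library leaves an arm of 2, and the part of the smaller sample in the changed counts of calls was not tested.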

Other observations

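Of the genes with 2 to 20 counts in a library, 78.7% to 81.2% had an even count. With all counts halved and rounded, a setting chosen after seeing the data, 22 members were higher and 7 lower, against 19 and 7 on the deposited counts. In the annotation, exons of Col4a3 share 563 bases with the transcript C430014B12Rik on the other strand, which had 575 counts over the 6 libraries against 90508 for Col4a3. Exons of Col20a1 share 79 bases with a transcript on the same strand that had 882 counts, more than the 408 of Col20a1 itself. Exons of Col4a1 and Col4a2 share 22 bases.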
